A study of Rattus norvegicus with 15 samples.

Results

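The genes described here encode the enzymes that carry fatty acids into mitochondria and burn them, together with the enzymes of the citrate cycle, in the rat myoblast line H9c2. The list was set by gene symbol: 37 genes, of which 35 were found among the 11574 genes of the count table. They comprised 19 genes of β-oxidation, the carnitine shuttle and electron transfer, 12 genes of the citrate cycle, 2 genes that set malonyl-CoA and 2 uncoupling proteins. Eci2 and Ogdh were not analysed here.

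H9c2 is a wild-type cell line, derived from rat ventricular tissue, that forms myotubes in low serum. RNA was sequenced from 15 cultures in 5 groups of 3. The T0 cultures were taken the day after seeding, in growth serum and without retinoic acid (RA). The T7-RA and T14-RA cultures had spent 7 or 14 days in low serum without RA. The T7+RA and T14+RA cultures had spent the same 7 or 14 days in low serum with all-trans RA, dissolved in DMSO and added daily at 1 µM. The sources used here describe no DMSO added to the cultures without RA, so RA and its solvent cannot be told apart, nor can days of culture and the change of serum. Every sample title names H9c2, although the numbering in the cell line label counts upward from H9c2 over the samples. All were therefore taken as 1 continuously grown line, which limits how far they stand for heart muscle.

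Each library held between 508397 and 1030820 counts, so that a gene at 10 CPM (counts per 1000000, scaled by edgeR's TMM factors) rested on few reads. Muscle markers were present in every group, with a summed level of 336 to 402 TPM (transcripts per 1000000, computed here from the counts and gene lengths) at T0 and 8725 to 9318 at T14-RA. With RA the same sum was 4564 to 5349 TPM at T14+RA. Myh3, Actc1 and Acta1 were called lower with RA, 3 of the 8 muscle markers against 3.07% of all genes. None was called higher, although 3 of the 8 had an RA log2 change above 0, at most 0.33. Proliferation markers had a summed level of 565 to 605 TPM at T0 and of 123 to 254.9 TPM over both T14 groups. Fibroblast markers summed to 8477 to 13808 TPM at T0 and to 6819 to 8364 TPM over both T14 groups. Of these, Col1a1 was called lower and Dcn higher at T14, and Thy1 lower and Dcn higher with RA, and the part of these markers in the results below was not tested. None of the listed markers of adipocytes, endothelium or leukocytes was analysed here. Dhrs3, Cyp26b1 and Tgm2, which respond to RA in many cells, summed to 4.21 to 17.9 TPM in the 9 cultures without RA and to 410 to 733 TPM in the 6 with it, as the labels state. In such bulk samples, fewer cells of a type and less RNA per cell cannot be told apart.

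Long-chain fatty acids are activated to acyl-CoA, carried across the mitochondrial membrane as carnitine esters, and shortened in repeated rounds that release acetyl-CoA. The citrate cycle then oxidises the acetyl group, and both routes hand electrons to the respiratory chain. Malonyl-CoA, made at the outer membrane by the enzyme that Acacb encodes, blocks the carnitine step and so sets how much fat is burned. Heart and slow skeletal muscle draw much of their energy from this pathway, and its genes rise when muscle matures.

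2 promoter stretches are shown, one between a pair of neighbouring genes that were both called higher at T14 and one at the gene called lower with RA. Hadha and Hadhb encode the α and β subunits of the mitochondrial trifunctional protein and lie head to head on rat chromosome 6, with their first bases 244 bases apart in the RefSeq annotation of GRCr8. The 243 bases between them (GRCr8, chr6:31907558-31907800, plus strand, in the direction of Hadha) are therefore upstream of both genes and hold none of the motifs searched, so that no letter is in capitals. For Acacb, the stretch runs from 170 bases before the start to 3 bases after it (GRCr8, chr12:48138212-48138384, minus strand). Its capitals mark AGGTCA, the hexamer to which nuclear receptors such as the RA receptors bind as pairs, once on each strand.
Hadha to Hadhb: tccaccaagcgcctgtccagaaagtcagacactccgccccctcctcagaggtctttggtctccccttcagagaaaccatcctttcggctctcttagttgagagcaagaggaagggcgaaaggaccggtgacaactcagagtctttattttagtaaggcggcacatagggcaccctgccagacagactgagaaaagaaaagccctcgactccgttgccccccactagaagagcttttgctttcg
Acacb: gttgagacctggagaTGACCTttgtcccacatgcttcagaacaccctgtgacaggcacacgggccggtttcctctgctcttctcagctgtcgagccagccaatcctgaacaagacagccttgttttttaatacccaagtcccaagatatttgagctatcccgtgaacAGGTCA

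The hexamer AGGTCA, searched on both strands, was in 16.2% of 33469 RefSeq promoter windows, each running from 250 bases before a gene's start to 50 bases after it. It was in 8 of the 32 windows found for the listed genes, those of Ucp3, Echs1, Hadhb, Eci1, Acadvl, Acacb, Eci2 and Idh3g. Direct repeats of AGGTCA spaced by 1, 2 or 5 bases, which contain the hexamer, were in 0.0538%, 0.012% and 0.00896% of all windows and in 0 of these 32. TCAAGGTCA, a longer form of the hexamer bound by estrogen-related receptors, was in 0.433% of all windows and CGCATGCG, the core of the NRF1 site, in 1.66%, and each was in 0 of the 32. The listed genes' windows had a median GC content of 60.7% and a median of 18 CpG dinucleotides, against 51.7% and 7 over all windows. Cpt1b, Acadl, Acaa2, Idh3a and Decr1 had no window in the table used.

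Per gene length, the listed citrate cycle genes outweighed the oxidation genes at T0 and equalled them at T14+RA. The 19 oxidation genes summed to 1196, 1177 and 1091 TPM in the 3 T0 cultures, to 1983, 2061 and 2085 TPM at T14-RA, and to 2517, 2578 and 2766 TPM at T14+RA. The T14+RA cultures lay above all 3 T14-RA cultures, which lay above all 3 T0 cultures. The 12 citrate cycle genes summed to 2189.8, 1960 and 2136 TPM at T0, to 2506, 2292 and 2317 TPM at T14-RA, and to 2546, 2514 and 2795 TPM at T14+RA. These sums moved less with time, although all T14 cultures lay above all T0 cultures. At day 7 they were 2158, 2221 and 2259 TPM without RA and 2073, 1989 and 2111 TPM with it, with no overlap. The oxidation sums at day 7 averaged 1602 TPM without RA and 1721 TPM with it. The ratio of the first sum to the second was 0.553 ± 0.0454 (SD, n = 3) at T0, 0.724 ± 0.0567 at T7-RA, 0.836 ± 0.0118 at T7+RA, 0.864 ± 0.0621 at T14-RA and 1.0 ± 0.0234 at T14+RA. These ratios are a description chosen after the values were seen, with no test, and TPM carries no correction for the composition of each library. Hadha and Hadhb weighed heavily in the oxidation sums, with mean levels of 205.3 and 216.3 TPM at T0. They were at 358.8 and 561.5 TPM at T14-RA and at 451.4 and 914.1 TPM at T14+RA. The rise of the oxidation sums and of the ratios thus rests largely on these genes, and sums without them were not computed.

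**Figure D1:**
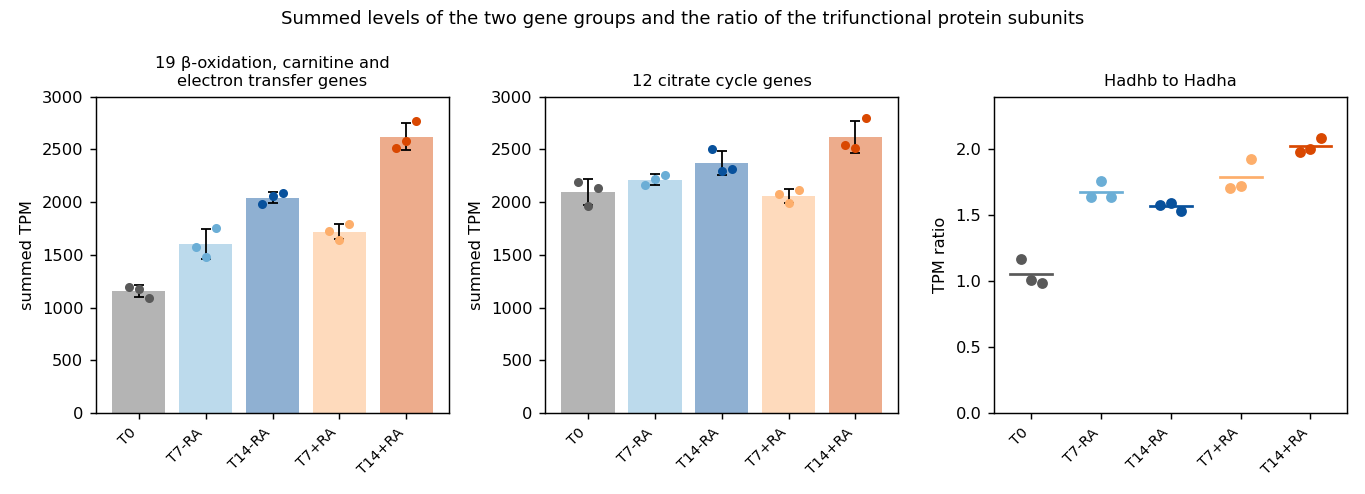
Left and middle, summed TPM of the 19 oxidation genes and of the 12 citrate cycle genes in each culture (points), with the group mean (bar) and SD (error bar), n = 3. Right, the ratio of Hadhb to Hadha in TPM in each culture (points) with the group mean (line). The oxidation sum was 1155 TPM at T0 and 2621 TPM at T14+RA, the citrate cycle sum 2095 and 2618 TPM, and the subunit ratio 1.05 and 2.02.

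To ask which genes changed with culture time, the T14 term gave the change from T0 to day 14 with the mean RA change of both days taken out, in 1 model of time and RA fitted to all genes (edgeR's quasi-likelihood test, Benjamini-Hochberg adjustment over all genes, called at an adjusted p under 0.001). At T14, 9 of the 35 genes were called higher, against 8.47% of all genes tested, and 0 were called lower, against 8.85%. The genes called were Acsl1, Acacb, Acadm, Hadha, Hadhb, Etfdh, Idh3b, Dld and Sucla2. The median log2 change was 0.79 over the 19 oxidation genes and 0.26 over the 12 citrate cycle genes, against 0.05 over all genes. The contrast between these medians holds for the listed genes alone, since 10 citrate cycle genes outside the list had a median of 0.70 and summed to 1348, 2183 and 2603 TPM at T0, T14-RA and T14+RA (means of 3). The median of the oxidation genes was also 0.79 with genes at 0 counts at T0 held at their lower bound. All 19 oxidation genes had a change above 0, as did 11 of the 12 citrate cycle genes, Idh3a being at -0.01 and, with library size scaling, at 0.1. At T7, Hadhb alone was called higher, against 4.29% of all genes, and Ucp2 alone lower, against 4.44%, and without T0 replicate 1 or T0 replicate 2 this count of 2 was 1.

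Hadhb and Hadha were among the most deeply read of these genes. The trifunctional protein carries out the last 3 reactions of each round on long acyl chains, Hadha supplying hydratase and dehydrogenase and Hadhb the thiolase. Hadhb, at 6q14 like Hadha, was at 225, 202.6 and 187 CPM at T0, at 377, 413 and 452 CPM at T7-RA and at 512, 567 and 519.9 CPM at T14-RA. With RA it was at 493, 452 and 574 CPM at T7+RA and at 821, 889.5 and 939 CPM at T14+RA. The T0 cultures were the lowest and the T14+RA cultures the highest, each clear of all other groups. The T14 log2 change of Hadhb was 1.48 (SE 0.126, adjusted p = 6.23e-15 in edgeR) and its T7 change 0.89 (SE 0.125, adjusted p = 1.1e-07).

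Hadha was at 295, 309.6 and 291 CPM at T0, at 352, 360.2 and 423 CPM at T7-RA and at 497, 547 and 523 CPM at T14-RA. With RA it was at 442, 403 and 456 CPM at T7+RA and at 638, 684 and 689 CPM at T14+RA. The order of the groups was that of Hadhb, over a smaller range. Its T14 log2 change was 0.84 (SE 0.11, adjusted p = 5.02e-09 in edgeR), and its T7 change was 0.3 (SE 0.11, adjusted p = 0.0415), short of the threshold. Per length, the ratio of Hadhb to Hadha was 1.17, 1.01 and 0.983 at T0, between 1.53 and 1.76 in the 6 T7-RA and T14-RA cultures, between 1.71 and 1.93 at T7+RA, and 1.98, 2.0 and 2.09 at T14+RA. The T0 and the T14+RA cultures did not overlap with any other group in this ratio, which was computed after the values were seen and was not tested.

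The other called oxidation genes sat at 3 steps of the route. Acsl1, which activates long-chain fatty acids, had a T14 log2 change of 0.79 (SE 0.154, adjusted p = 3.44e-05 in edgeR). Acadm, the medium-chain acyl-CoA dehydrogenase, was at 24.8, 15.0 and 12.6 CPM at T0, at 31.0, 30.9 and 30.5 CPM at T7-RA and at 33.6, 49.6 and 47.4 CPM at T14-RA. It was at 28.5, 34.9 and 39.4 CPM at T7+RA and at 58.8, 44.0 and 39.9 CPM at T14+RA. All cultures after T0 were above all T0 cultures. Its T14 log2 change was 1.23 (SE 0.29, adjusted p = 0.000498 in edgeR), a call that was lost with limma-voom, with DESeq2 and without any 1 of 5 libraries (T0 replicates 2 and 3, T14-RA replicates 2 and 3 and T14+RA replicate 1), where the change was between 1.07 and 1.18.

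Etfdh encodes the membrane enzyme that passes electrons from the acyl-CoA dehydrogenases to ubiquinone. It was at 17.9, 24.4 and 23.1 CPM at T0, at 31.0, 29.6 and 56.6 CPM at T7-RA and at 61.3, 40.7 and 50.8 CPM at T14-RA. With RA it was at 29.9, 26.8 and 34.3 CPM at T7+RA and at 73.3, 56.6 and 61.6 CPM at T14+RA. Every T14 culture was above every T0 culture, while 1 T7-RA culture reached the T14 range. Its T14 log2 change was 1.42 (SE 0.281, adjusted p = 3.76e-05 in edgeR), and the call was lost without T0 replicate 1. Its partners in the electron transfer flavoprotein gave 0.76 (SE 0.207, adjusted p = 0.00244) for Etfa and 0.28 (SE 0.24, adjusted p = 0.397) for Etfb, neither of them called.

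**Figure D2:**
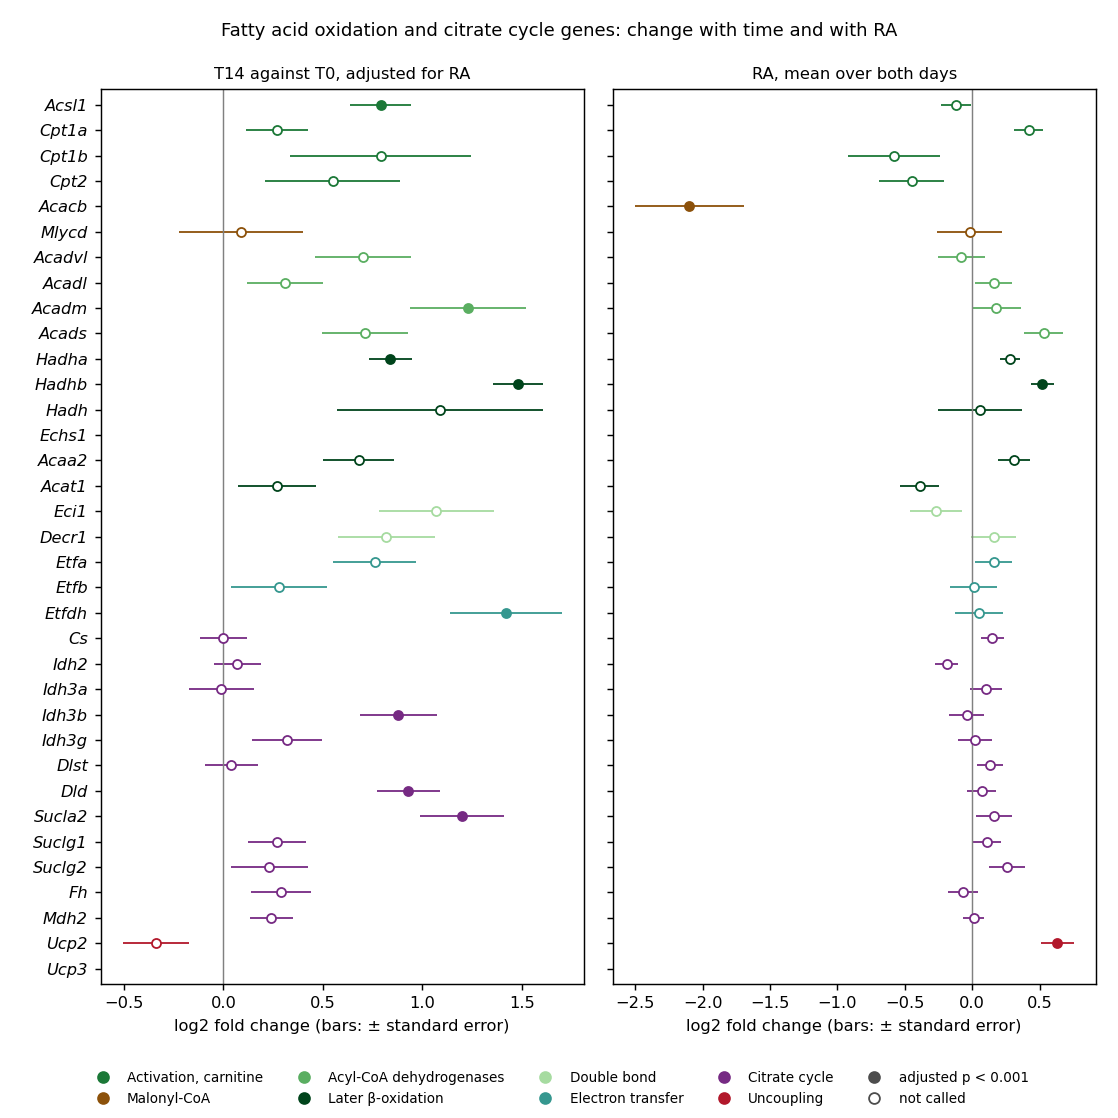
Fitted log2 fold change (x axis, points; bars, ± standard error) of each gene at T14 against T0 (left) and with RA over both days (right), ordered and coloured by role, on scales that differ between the panels. Filled points passed an adjusted p under 0.001. Acacb (left), Echs1 and Ucp3 (both panels) are left out because they had 0 counts at T0. The purple citrate cycle points lie between -0.01 and 0.32 at T14 except Idh3b, Dld and Sucla2, which lie between 0.88 and 1.20.

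The remaining oxidation genes gave T14 changes between 0.27 and 1.09, apart from Echs1, and none was called. Among the acyl-CoA dehydrogenases, the log2 change was 0.70 for Acadvl (adjusted p = 0.0183 in edgeR), 0.31 for Acadl (adjusted p = 0.198) and 0.71 for Acads (adjusted p = 0.007). Eci1 and Decr1, which handle double bonds, gave 1.07 (adjusted p = 0.00235) and 0.82 (adjusted p = 0.00615). The thiolase Acaa2 gave 0.68 (adjusted p = 0.00177) and Acat1, which acts on short chains and ketone bodies, 0.27 (adjusted p = 0.312). At an adjusted p under 0.05, 11 of the 19 oxidation genes and 3 of the 12 citrate cycle genes were higher at T14, against 17.9% of all genes, and 0 were lower, against 17.5%. Hadh had 115 counts and Cpt2 193 counts over all libraries, so that with SEs of 0.518 and 0.339 changes of this size were not detectable at this depth. Echs1, the short-chain hydratase, had 21 counts over all 15 libraries, with 0 in each T0 culture, and no fold is given for it.

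In the citrate cycle, the called genes were Sucla2, Dld and Idh3b. Sucla2 is the ATP-forming β subunit of succinyl-CoA ligase. It was at 44.1, 60.0 and 25.2 CPM at T0, at 83.5, 77.9 and 79.9 CPM at T7-RA and at 97.3, 101.0 and 71.1 CPM at T14-RA. It was at 71.3, 73.8 and 68.6 CPM at T7+RA and at 122.5, 124 and 121.5 CPM at T14+RA. All T0 cultures were below all others and the T14+RA cultures above all others. Its T14 log2 change was 1.20 (SE 0.21, adjusted p = 4.63e-06 in edgeR), beside 0.27 (adjusted p = 0.146) for the shared α subunit Suclg1 and 0.23 (adjusted p = 0.379) for the GTP-forming β subunit Suclg2. A difference between these subunits was not tested.

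Dld, the dihydrolipoamide dehydrogenase shared by the pyruvate and 2-oxoglutarate dehydrogenase complexes, was at 67.6, 69.4 and 83.8 CPM at T0, at 108.6, 98.1 and 120.6 CPM at T7-RA and at 143, 138 and 127.0 CPM at T14-RA. It was at 124.0, 100.7 and 104.6 CPM at T7+RA and at 143, 146 and 156 CPM at T14+RA. T0 was lowest, T7 between and T14 highest, with no overlap between these 3 times and no separation by RA at either day. Its T14 log2 change was 0.93 (SE 0.159, adjusted p = 3.13e-06 in edgeR). Dlst, the core of the 2-oxoglutarate complex, gave 0.04 (SE 0.132, adjusted p = 0.833).

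The 3 subunits of NAD-dependent isocitrate dehydrogenase also gave unlike values. Idh3b had a T14 log2 change of 0.88 (SE 0.192, adjusted p = 0.000183 in edgeR), a call lost without T0 replicate 1 or T14-RA replicate 1. Idh3a, the catalytic subunit, gave -0.01 (SE 0.165, adjusted p = 0.985) and Idh3g 0.32 (SE 0.178, adjusted p = 0.161). Citrate synthase, often used to gauge how many mitochondria cells hold, was read deeply and gave one of the smallest changes of the set. Cs was at 279, 264.5 and 216 CPM at T0, between 225 and 262 CPM in the 9 cultures at T7-RA, T7+RA and T14-RA, and at 287.5, 313 and 295.5 CPM at T14+RA. Its T14 log2 change was 0.0 (SE 0.12, adjusted p = 0.984), and that of Idh2, the NADP-dependent mitochondrial enzyme, was 0.07 (SE 0.117, adjusted p = 0.69). Fh gave 0.29 (adjusted p = 0.132) and Mdh2, with group means of 569.7 to 672.9 TPM at T0 and T14 the highest of the cycle, 0.24 (adjusted p = 0.072).

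To ask which genes responded to RA, the RA term compared cultures with and without it over both days. 2 of the 35 genes were called higher with RA, Hadhb and Ucp2, against 3.33% of all genes, and 1, Acacb, was called lower, against 3.07%. At day 7 alone, 0 genes were called in either direction in edgeR, against 1.87% of all genes higher and 1.3% lower. At an unadjusted p under 0.05, 7 of the 35 passed at day 7, 4 of them higher, against 8.67% of all genes, and 3 lower, against 8.58%, and limma-voom and DESeq2 also called 0. At day 14 alone, Hadhb was called higher, against 2.46% of all genes, and Acacb lower, against 2.35%. Without T14-RA replicate 1 or T14+RA replicate 1, 1 gene was called at day 14. The day 14 comparison shares its cultures with the RA term and is no second test of it.

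Hadhb had an RA log2 change of 0.52 (SE 0.0835, adjusted p = 2.18e-06 in edgeR), of 0.29 (SE 0.106, adjusted p = 0.0869) at day 7 and of 0.73 (SE 0.101, adjusted p = 6.15e-08) at day 14. Its T14+RA cultures were all above its T14-RA cultures by more than the spread within either group. Hadha gave 0.28 (SE 0.0772, adjusted p = 0.00659) over both days and 0.36 (SE 0.0993, adjusted p = 0.00879) at day 14, short of the threshold.

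Ucp2, a carrier of the inner mitochondrial membrane related to the uncoupling protein of brown fat, was called lower at T7 and higher with RA. It was at 107.6, 105 and 90.1 CPM at T0, at 58.5, 61.8 and 59.5 CPM at T7-RA and at 84.1, 77.9 and 71.1 CPM at T14-RA. It was at 89.8, 95.3 and 78.8 CPM at T7+RA and at 133, 144.6 and 97.9 CPM at T14+RA. The cultures with RA were above those without it at each day, with no overlap. Its RA log2 change was 0.63 (SE 0.123, adjusted p = 7.5e-05 in edgeR), with 0.56 (adjusted p = 0.0425) at day 7 and 0.69 (adjusted p = 0.00173) at day 14. Its T7 change was -0.80 (SE 0.169, adjusted p = 0.000228), a call lost without T0 replicate 1 or T0 replicate 2 and with library size scaling, which leaves 1 gene called at T7.

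Ucp3, the uncoupling protein of muscle, lies beside Ucp2 with its start 23463 bases away in GRCr8. It was read 28 times in all, with 0 counts in the 3 T0 cultures, 1 count each over the T7-RA and T7+RA groups, 9, 6 and 2 counts at T14-RA, and 4, 1 and 4 counts at T14+RA. Reads were found in every T14 culture and in only 2 of the 9 earlier ones. Against a floor of 3 counts over the T0 group, its mean level was at least 4.79-fold higher at T14-RA and at least 2.44-fold higher at T14+RA. Its T14 term had an adjusted p of 0.00121 in edgeR and was not called. Ucp3 met the filter of the deposited counts only through its T14 cultures. A gene that stayed as low as in the earlier cultures would not have been analysed. The split between T14 and earlier cultures and the folds of Ucp3 are therefore a description only.

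Acacb, the acetyl-CoA carboxylase that makes malonyl-CoA at mitochondria, had the largest log2 change with RA of the 35 genes. It had 0 counts in all T0 cultures, 2, 1 and 2 counts at T7-RA, 34, 15 and 23 counts at T14-RA, 0, 1 and 2 counts at T7+RA, and 4, 5 and 6 counts at T14+RA. As CPM, the T14-RA cultures were at 40.8, 26.6 and 38.9 and the T14+RA cultures at 3.86, 7.86 and 10.9, with no overlap. Against the same floor at T0, the mean was at least 20.5-fold higher at T14-RA and at least 4.36-fold higher at T14+RA. Like Ucp3, Acacb met the filter of the deposited counts only through its T14 cultures, which limits its rise from T0 in the same way. The T14 term had an adjusted p of 1.22e-09 in edgeR, and its fitted fold is not given because it depends on the zeros at T0. The RA log2 change was -2.10 (SE 0.405, adjusted p = 4.55e-05), and at day 14 it was -2.36 (SE 0.431, adjusted p = 2.4e-05).

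The RA call for Acacb was lost with DESeq2 (log2 change -2.01), without T14-RA replicate 1 (-1.91) and without T14+RA replicate 1 (-1.67), and its direction held in each. The summed muscle markers moved in the same order, with 9013 TPM at T14-RA and 4974 TPM at T14+RA (means of 3), and their part in this result was not tested. Prkab2, a subunit of the AMP-activated kinase that phosphorylates this carboxylase, had an RA log2 change of -0.93 (SE 0.182, adjusted p = 7.8e-05 in edgeR). Mlycd, which breaks malonyl-CoA down, gave -0.02 (SE 0.241, adjusted p = 0.973) with RA and 0.09 (SE 0.311, adjusted p = 0.855) at T14.

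Cpt1a, the form of the carnitine step found in most tissues, was at 82.8, 91.9 and 90.1 CPM at T0, at 93.0, 98.1 and 98.8 CPM at T7-RA and at 99.7, 101.0 and 115 CPM at T14-RA. It was at 134, 115.4 and 134 CPM at T7+RA and at 142, 129 and 159.5 CPM at T14+RA. The cultures with RA were above those without it at each day, with no overlap. Its RA log2 change was 0.42 (SE 0.107, adjusted p = 0.00271 in edgeR), with 0.40 at day 7 and 0.44 at day 14, and none of these was called.

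Cpt1b, the muscle form of the same enzyme, was at 9.66, 7.5 and 12.6 CPM at T0, at 15.5, 5.38 and 10.2 CPM at T7-RA and at 19.2, 15.9 and 11.9 CPM at T14-RA. It was at 8.55, 5.37 and 1.71 CPM at T7+RA and at 7.72, 20.4 and 10.9 CPM at T14+RA, and of all pairs of groups only T14-RA and T7+RA did not overlap. With 111 counts in all, its RA log2 change was -0.58 (SE 0.342, adjusted p = 0.29 in edgeR). Per length, Cpt1a was at 41.3 TPM and Cpt1b at 5.35 TPM at T0, and the ratio of the 2 in single cultures ran from 4.54 to 18.8 over the series apart from T7+RA replicate 3, where it was 68.2 on 1 count of Cpt1b.

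**Figure D3:**
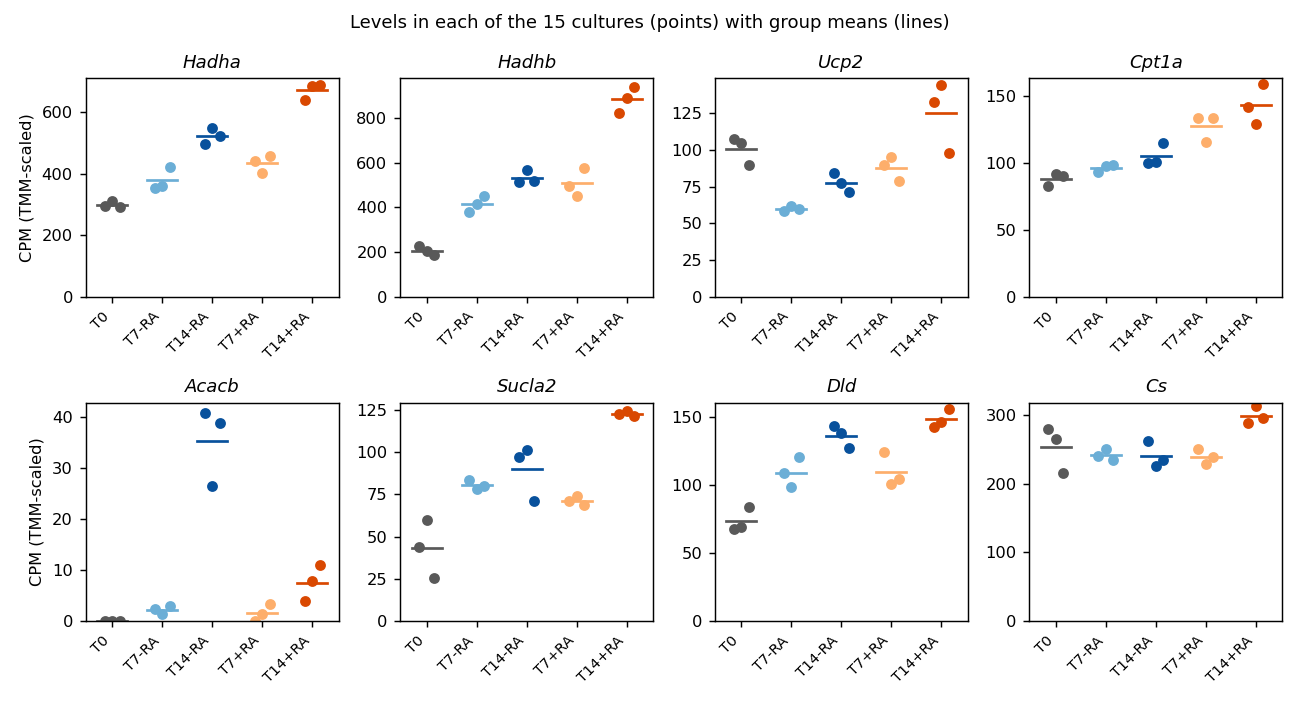
CPM, scaled by edgeR's TMM factors, of 8 genes in each of the 15 cultures (points, in replicate order) with the group mean (line), each panel on its own scale from 0. Hadha and Hadhb are highest at T14+RA, Ucp2 and Cpt1a are higher with RA at each day, Acacb is highest at T14-RA, and Cs stays between 216 and 313 CPM.

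The groups were also compared culture by culture at each day, and a difference between the counts of the days was not tested. All 3 T14+RA cultures lay above all 3 T14-RA cultures for 15 of the 35 genes, against 13.4% of all genes, and below them for 3, Acacb, Acat1 and Fh, against 13.9%. The 15 included 8 of the 19 oxidation genes and 6 of the 12 citrate cycle genes, among them Cs, Dlst, Idh3a, Idh3g and Suclg2. At day 7 the T7+RA cultures lay above all T7-RA cultures for 4 genes, Cpt1a, Acads, Hadhb and Ucp2, against 11.8% of all genes, and below them for 5, Acsl1, Cpt2, Mlycd, Idh2 and Sucla2, against 12.6%. The lower counts rose to 8 at day 7 without T7-RA replicate 1, T7-RA replicate 2 or T7+RA replicate 3 and to 6 at day 14 without T14-RA replicate 3, where smaller groups separate more easily. With 3 cultures against 3, the smallest p an exact permutation test of 1 gene allows is 0.1.

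Whether RA changed these genes more at day 14 than at day 7 was then tested directly. In edgeR at an adjusted p under 0.05, 0 genes were called in either direction, against 0.285% of all genes with a larger change at day 14 and 0.458% with a smaller one. At an unadjusted p under 0.05 the count was 8 above 0 (Acsl1, Mlycd, Hadhb, Etfa, Idh3a, Dlst, Sucla2 and Suclg2), against 4.03% of all genes, and 0 below, against 4.31%, and limma-voom and DESeq2 called 0. The difference was above 0 for 28 of the 35 genes, with a median of 0.29 against 0.01 over all genes. For Hadhb it was 0.44 (SE 0.146, adjusted p = 0.212), for Suclg2 0.71 (SE 0.236, adjusted p = 0.201) and for Dlst 0.48 (SE 0.178, adjusted p = 0.334). No single gene was thus shown to respond differently at the 2 days.

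The same contrast can be read as the second week of culture with RA against the second week without it. Without RA, 2 genes were called higher at T14-RA than at T7-RA, Acacb and Hadha, against 1.87% of all genes, and 0 lower, against 1.09%. With RA, 7 were called higher at T14+RA than at T7+RA, against 2.4% of all genes, and 0 lower, against 2.26%. These were Acsl1, Acadl, Hadha, Hadhb, Decr1, Etfdh and Sucla2, with log2 changes between 0.63 (Hadha) and 1.10 (Etfdh). The count fell to 3 with limma-voom or DESeq2, to 3 without T14+RA replicate 1 or any T7+RA replicate, and to 4 without T14-RA replicate 3, T14+RA replicate 2 or T14+RA replicate 3. Without RA the count was 1 with library size scaling, with a minimum of 10 counts, and without any of 9 libraries (every one of T14-RA and T7+RA, T7-RA replicates 1 and 2, and T14+RA replicate 1).

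Counted by culture, all 3 T14-RA cultures lay above all T7-RA cultures for 16 of the 35 genes, against 13.2% of all genes, and below them for 2, Idh3a and Suclg2, against 12.5%. All 3 T14+RA cultures lay above all T7+RA cultures for 28 of the 35, against 14.4%, and below them for 0, against 13.6%. The 28 included 11 of the 12 citrate cycle genes and 14 of the 19 oxidation genes. The median second-week log2 change of the citrate cycle genes was 0.09 without RA and 0.41 with it, and that of the oxidation genes 0.43 and 0.63. The median RA change of the citrate cycle genes was -0.1 at day 7, against -0.02 over all genes, and 0.21 at day 14. With RA they thus started this week from a lower level, whose part in these medians was not tested. Over the second week Dlst gave 0.01 (SE 0.127) without RA and 0.49 (SE 0.125) with it, and Mlycd 0.30 (SE 0.327) and 1.45 (SE 0.346), none of them called. Proliferation markers went from 519 to 232 TPM over this week without RA and from 430.2 to 169.7 TPM with it (means of 3), and their part in these counts was not tested.

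**Figure D4:**
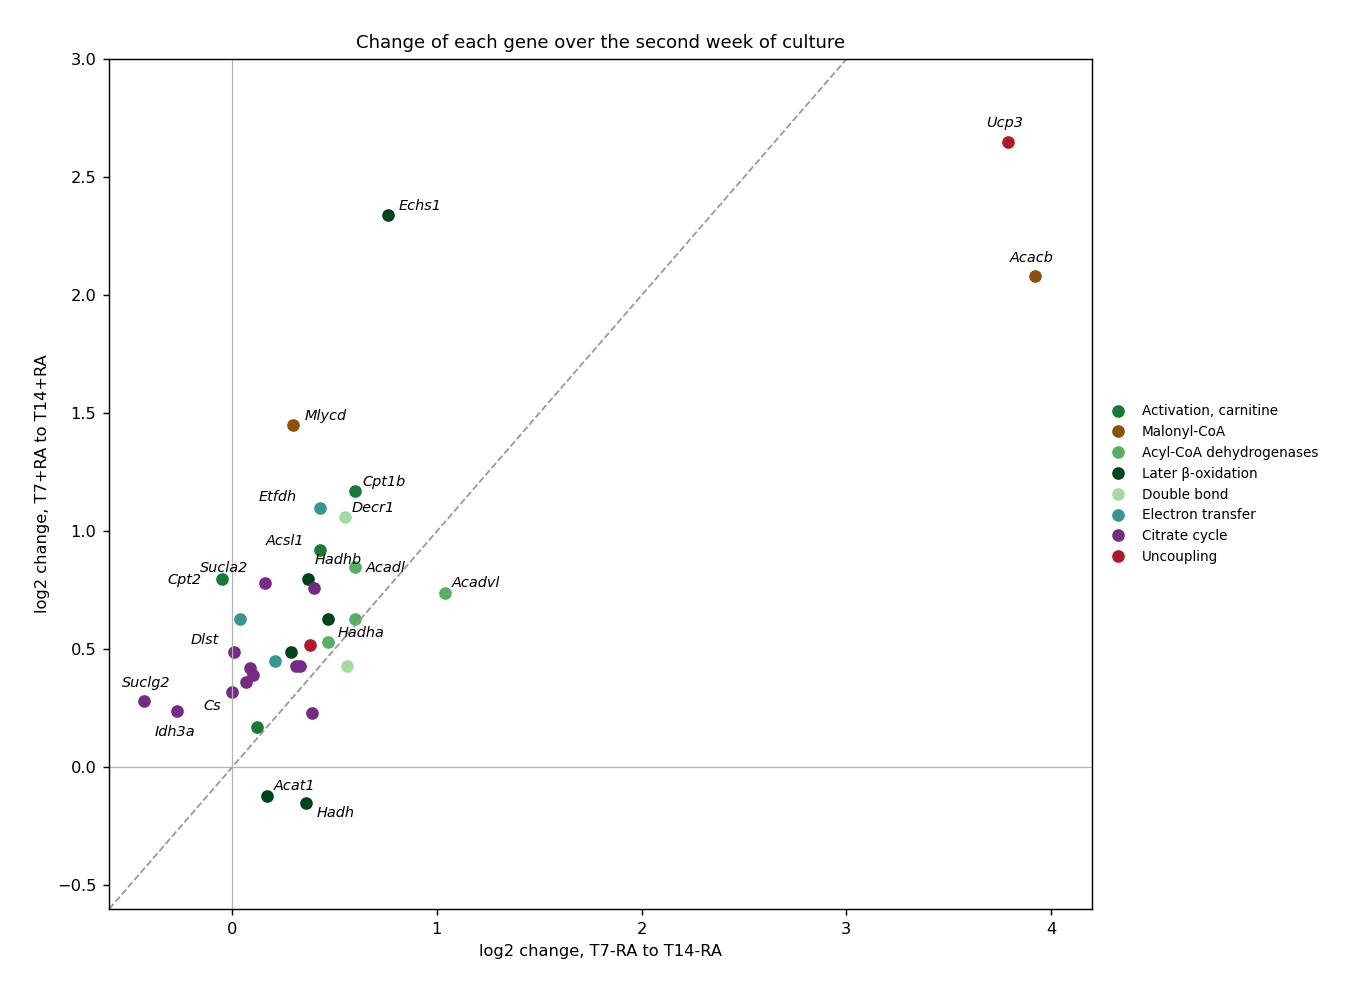
Log2 change of each of the 35 genes over the second week without RA (x axis, T7-RA to T14-RA) and with RA (y axis, T7+RA to T14+RA), coloured by role; the dashed line marks equal change. 28 of the 35 points lie above the line, and Acacb (3.92 and 2.08) and Ucp3 (3.79 and 2.65) lie farthest below it, although no gene passed the test of that difference and Acacb, Echs1 and Ucp3 had few counts.

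Measured from T0 to each T14 group on its own, the genes called were more numerous with RA. From T0 to T14-RA, 8 of the 35 were called higher, against 7.83% of all genes, and 0 lower, against 7.84%. From T0 to T14+RA, 14 were called higher, against 9.83%, and 0 lower, against 9.9%. Both comparisons share the T0 cultures, and a difference between their counts was not tested. Acsl1, Acacb, Hadha, Hadhb, Etfdh, Idh3b, Dld and Sucla2 were called in both, and Cpt1a, Acadm, Acads, Acaa2, Decr1 and Etfa at T14+RA. Without T14-RA replicate 1 the first count was 5, and without T0 replicate 1 the second was 9.

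From T0, Hadhb changed by 1.37 (SE 0.118) at T14-RA and by 2.09 (SE 0.114) at T14+RA on the log2 scale, and Sucla2 by 1.04 (SE 0.213) and 1.49 (SE 0.2). Acads, the short-chain dehydrogenase, gave 0.70 (SE 0.23, adjusted p = 0.013 in edgeR) and 1.24 (SE 0.214, adjusted p = 2.08e-06). Acat1 gave 0.34 (adjusted p = 0.223) and -0.20 (adjusted p = 0.508). Suclg2 gave 0.02 (adjusted p = 0.941) and 0.65 (adjusted p = 0.00193).

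Other genes of the same pathways, taken from lists set by function, were tested in the same fits, and no test of a list was made. In fatty acid uptake and activation, 4 of 7 were called higher at T14, against 8.47% of all genes, led by Acss2 (log2 change 2.09, SE 0.224) and Acsl3 (2.04, SE 0.183), with Slc27a1 and Acsl4. Acsl3 and Acsl4, which activate long and polyunsaturated chains, were also called higher with RA, by 0.63 and 0.69, 2 of 7 against 3.33% of all genes. Acss2, which activates acetate, was called lower with RA (-0.74, SE 0.133), 1 of 7 against 3.07%. From T0 to T14+RA, 3 of 7 were called higher, against 9.83%, and 1, Acsl5, lower, against 9.9%. In the carnitine system Crat was called at T14 (0.76, SE 0.17), 1 of 5 genes against 8.47% of all genes, and the carrier Slc25a20 was not (0.30, adjusted p = 0.317 in edgeR). Of 11 further mitochondrial genes, Acot9 was called at T14 (0.91), 1 of 11 against 8.47%, and Acot9 and Echdc1 at T7, 2 of 11 against 4.29%. Among the peroxisomal genes, those called at T14 included Hsd17b4 (1.59), Scp2 (1.43) and Ech1 (1.05), and none of these 3 was called with RA. Of 4 ketone body genes Bdh2 was called at T14 (1.89, SE 0.272), 1 of 4 against 8.47%.

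Among further citrate cycle genes, those called higher at T14 included Idh1 (1.23), Sdhd (1.17), Mdh1 (0.97), Sdha (0.86) and Sdhc (0.76), and none of these 5 was called by the RA term. Idh1 and Mdh1 act in the cytosol, and Sdha, Sdhc and Sdhd are subunits of succinate dehydrogenase. Mdh1 was also called higher with RA at day 14 (0.51, SE 0.115), 1 of 10 genes against 2.46% of all genes. Where acetyl groups enter the cycle from pyruvate, Pdha1 (0.72, SE 0.135) and Pdhb (1.10, SE 0.206) were called at T14, 2 of 14 genes against 8.47% of all genes. Pdk3 and Pdk4, kinases that switch pyruvate dehydrogenase off, were called higher with RA, 2 of 14 against 3.33%. Pdk3 had an RA log2 change of 1.27 (SE 0.2) and Pdk4 had 47 counts, with a mean of 21.3 CPM at T14+RA and 0.0 CPM in the other 4 groups. Pdk4 thus met the filter of the deposited counts through T14+RA alone. Its call by the RA term rests on day 14 and is a description only.

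In the anaplerotic and shuttle list, 3 of 12 were called at T14 against 8.47% of all genes, Got1 (0.57), Slc25a11 (1.08) and Slc25a12 (1.03), which serve the malate-aspartate shuttle. Got1 was also called higher with RA (0.75, SE 0.0912), 1 of 12 against 3.33%. Of 14 transcriptional regulators 0 were called higher at T14 or with RA, against 8.47% and 3.33% of all genes, and Pprc1, a relative of PGC-1α induced in growing cells, was lower at T14 (-1.10, SE 0.147) and T7 (-0.97, SE 0.145). Ppara had 28 counts over all libraries, so that its change could not be resolved. Esrra gave 0.47 at T14 (adjusted p = 0.0464 in edgeR) and 0.43 with RA (adjusted p = 0.0132), and was called higher from T0 to T14+RA (0.96, SE 0.187, adjusted p = 2.26e-05). In that comparison Ppard was also called higher, 2 of 14 against 9.83% of all genes, and Pprc1 and Rara lower, 2 of 14 against 9.9%. Of the AMP-activated kinase list, 1 of 7 was called at T14, Prkab2 (1.60, SE 0.257), against 8.47% of all genes. Of 5 mitochondrial carriers 0 were called at T14, against 8.47%, and Slc25a4, the ADP/ATP carrier of heart and muscle, was called higher with RA at day 14 (0.49, SE 0.1), 1 of 5 against 2.46%.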

How the data were processed

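RNA from 15 H9c2 cultures was sequenced as paired short reads. Per the labels and the study's methods, the authors mapped reads with HISAT2, named with build Rnor_6.0, counted them per gene with featureCounts, and deposited raw counts only for genes summing to more than 20 counts over the libraries. The strand setting and annotation release are not given in the sources used here, so reads of overlapping genes could not be told apart. Deposited gene lengths gave TPM. The study calls its samples biological replicates. The listed genes, the pathway lists and the markers were chosen with earlier results of these data known.

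Counts were fitted in edgeR 4.0.16 (R 4.3.3) on all 11574 genes and 15 libraries, with TMM factors and robust quasi-likelihood tests, as time plus RA or as 5 group means. All p-values are two-sided and Benjamini-Hochberg adjusted over all genes. Calls needed an adjusted p under 0.001, the study's threshold, or under 0.05 for the difference between days. The SE is the log2 change divided by the root of the F statistic. The biological coefficient of variation was 9.81% in the first model and 8.84% in the second. Fits were tested on simulated data. Values in every culture are given for genes called for RA, the 6 with the largest T14 change among those called, Cpt1a, Ucp2, Cpt1b and Ucp3, and Hadha and Cs, added after their values were seen. Alternatives used limma-voom (limma 3.58.1), DESeq2 1.42.0, other scalings and filters, a threshold of 0.05, the replicate number as a block, and each library left out. Alternatives for counts of groups that did not overlap were chosen after seeing the data. Figures were drawn with matplotlib 3.10.9. Intervals cover the spread between cultures only. Library totals of 508397 to 1030820 counts set the precision. Some genes of the pathway lists are not reported here.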

Additional observations from a re-analysis of the deposited data

How the results depend on the processing

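Counts of called genes moved by more than 1.5 times under some settings, and no call changed direction in those run. With an adjusted p under 0.05 in place of 0.001, the counts out of 35 were 6 at T7 (2 as reported), 16 at T14 (9), 6 with RA (3), 1 for RA at day 7 (0), 7 for RA at day 14 (2), 7 in the second week without RA (2), 18 with it (7) and 16 from T0 to T14-RA (8), against 23.1%, 35.4%, 14.7%, 7.41%, 11.2%, 7.79%, 11.4% and 32.6% of all genes in either direction, in that order. With DESeq2 the counts were 1 for RA at day 14, 3 in the second week with RA and 5 from T0 to T14-RA, and with limma-voom 3 in that week. Library size scaling, which put the median of all genes at 0.13 (T7) and 0.15 (T14) in place of 0.02 and 0.05, left 1 at T7 and 1 in the second week without RA, and a minimum of 10 counts in every library, which kept 26 of the 35 genes, left 1 for RA at day 14 and 1 in that week. Without single libraries the counts ran from 1 to 2 at T7, 7 to 9 at T14, 2 to 3 with RA, 1 to 3 for RA at day 14, 1 to 3 and 3 to 10 in the second week without and with RA, 5 to 8 from T0 to T14-RA, and 9 to 14 from T0 to T14+RA. The median T14 change of the oxidation genes was 0.89 with library size scaling and 0.72 to 0.85 without single libraries, and that of the citrate cycle genes 0.36, 0.32 with 10 counts and 0.23 to 0.29. Counts of genes whose groups did not overlap ran, without single libraries, from 4 to 6 higher and 6 to 8 lower with RA at day 7, 16 to 19 and 3 to 6 at day 14, 17 to 19 and 2 to 3 in the second week without RA, and 28 to 31 and 0 to 1 with it. The cause was not tested. The replicate block gave 2 calls at T7, 9 at T14, 3 with RA, 3 for RA at day 14 and 15 from T0 to T14+RA. Same-numbered libraries had a correlation over 0.1 in 8 of 30 pairs (-0.0514 to 0.265). Their mean correlation was 0.054, against -0.027 for libraries of different number, and whether cultures of 1 number shared a source was not tested. The labels do not state that the numbers pair samples, so the main fits used no block. Depth limits Echs1, Ucp3, Hadh, Cpt1b and Acacb most.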
